A study of Homo sapiens with 101 samples.

Results

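The ligands BMP2, BMP4, BMP5 and BMP7, the BMP-responsive genes ID1, ID2, ID3 and SMAD7, and the stress-induced TGF-beta family member GDF15 were followed across 9 treatments of the colorectal cancer cell lines SW620 and SW480. The 9 genes were taken by their platform symbol from 19775 measured genes. They hold 17 probe sets, 5 of the genes have over 1, and each gene was read from the probe set with the highest mean over all 101 arrays. These were 205290_s_at for BMP2, 211518_s_at for BMP4, 205431_s_at for BMP5, 209591_s_at for BMP7, 208937_s_at for ID1, 201565_s_at for ID2, 207826_s_at for ID3, 204790_at for SMAD7 and 221577_x_at for GDF15. The genes were chosen by their knockdown differences, since BMP2 and BMP5 were known to be higher, and GDF15 lower, after several knockdowns in these arrays; the knockdown differences of those 3 genes are therefore given without a test. BMP4, BMP7, the ID genes and SMAD7 were tested, and the question put to them was whether the higher BMP2 and BMP5 levels went with higher levels of the BMP-responsive genes.

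Both lines are established adenocarcinoma cultures, SW480 grown from a primary colon tumour and SW620 from a later lymph node spread in that patient. In each line CDK5, HRAS, MAP2K1, MAP2K2, MAPK3 or NGFR was knocked down with a short hairpin RNA, against an empty vector, a non-target hairpin that matches no human gene, and cells that were not transduced. The labels name the hairpin of each knockdown by a code, which for HRAS differs between replicate 1 and replicates 3 to 6, so that group, kept as 1, may hold more than 1 hairpin. They do not say whether transduced cells were kept as clones or as pools. Of the 18 groups, 15 had 6 arrays, the CDK5 knockdown of SW620 had 5 and each non-transduced group had 3. By their titles the arrays form label series, namely replicate 1, replicate 2 and replicates 3 to 6, and 2 non-transduced arrays bore the number 7 (4 in another label field; the title was followed). The labels do not say that replicates 3 to 6 were separate cultures, so the p-values measure the spread between these arrays, which may be technical in part. Values are log2 RMA intensities, a scale on which 1 unit is a doubling, and array medians lay between 5.05 and 5.28.

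BMPs are secreted dimers that bind pairs of serine/threonine kinase receptors. The receptors phosphorylate SMAD1, SMAD5 and SMAD9, which enter the nucleus with SMAD4 and switch on the ID genes within hours. ID proteins hold basic helix-loop-helix factors off DNA, and SMAD7 is a feedback inhibitor that the same signal induces. In the intestine BMP signalling is strongest in differentiated cells away from the crypt base and opposes WNT signalling, and GDF15 acts apart from this pathway, through the receptor GFRAL in the brainstem.

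Promoter sequences from RefSeq (build GRCh38.p14) were at hand for 7 of the 9 genes, and 5 are shown because their genes part ways below. Each line holds the 250 bases before the gene's start, read 5′ to 3′ on the gene's strand. They lie at chr20:31605039-31605288 (ID1, plus strand), chr1:23559502-23559751 (ID3, minus strand), chr14:53955051-53955300 (BMP4, minus strand), chr6:55875591-55875840 (BMP5, minus strand) and chr19:18385908-18386157 (GDF15, plus strand). Capitals mark matches on either strand to GGCGCC, a GC-rich element bound by SMAD1, or to CAGAC, the core of a SMAD3 and SMAD4 site.
ID1: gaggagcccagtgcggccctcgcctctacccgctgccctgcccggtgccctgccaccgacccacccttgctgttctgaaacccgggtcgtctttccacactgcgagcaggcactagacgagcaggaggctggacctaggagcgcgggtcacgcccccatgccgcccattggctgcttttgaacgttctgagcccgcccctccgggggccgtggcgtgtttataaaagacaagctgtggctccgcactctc
ID3: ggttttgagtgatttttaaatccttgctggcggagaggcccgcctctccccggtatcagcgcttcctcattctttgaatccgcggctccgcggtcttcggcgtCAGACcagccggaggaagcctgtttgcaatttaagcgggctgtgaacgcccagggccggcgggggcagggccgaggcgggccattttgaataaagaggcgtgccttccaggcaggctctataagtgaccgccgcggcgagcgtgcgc
BMP4: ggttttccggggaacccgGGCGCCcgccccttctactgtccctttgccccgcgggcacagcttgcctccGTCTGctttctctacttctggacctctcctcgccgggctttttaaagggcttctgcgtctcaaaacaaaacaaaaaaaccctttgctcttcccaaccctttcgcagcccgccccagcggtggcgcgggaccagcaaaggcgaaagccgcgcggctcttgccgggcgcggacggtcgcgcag
BMP5: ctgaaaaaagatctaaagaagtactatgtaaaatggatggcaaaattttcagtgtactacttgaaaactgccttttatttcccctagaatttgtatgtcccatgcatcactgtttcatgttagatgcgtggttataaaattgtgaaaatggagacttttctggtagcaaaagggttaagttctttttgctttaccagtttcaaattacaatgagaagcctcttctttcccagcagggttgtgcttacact
GDF15: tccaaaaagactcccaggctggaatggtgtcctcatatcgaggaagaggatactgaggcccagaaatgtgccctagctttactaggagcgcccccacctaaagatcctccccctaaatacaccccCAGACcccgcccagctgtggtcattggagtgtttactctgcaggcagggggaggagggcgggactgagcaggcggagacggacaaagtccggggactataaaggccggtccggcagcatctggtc
The BMP4 window held GGCGCC at base -232 and CAGAC, on the other strand, at base -181. ID3 held CAGAC at base -147 and GDF15 at base -125, while the ID1 and BMP5 windows held neither run of letters. Of 27305 promoter windows of this length, 16.1% held GGCGCC and 37.8% held CAGAC, so a match in such a window was common. TGANTCA, the AP-1 element, and TTGCATCA, an element bound by ATF4, were found in none of the 7 windows, against 6.60% and 0.820% of all windows. No overlap between motifs occurred in these windows, and a missing match says only that the letters are absent from these 250 bases. GC content was 66% in ID1 and 35.6% in BMP5, against a median of 58% over all windows.

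Both lines carried epithelial markers: 6 of 9 colorectal epithelial markers had a median over 7 in each line, led by KRT18 at 13.4 in SW620 and 13.8 in SW480. KRT20, a marker of differentiated colon, was at 3.62 in SW620 and 3.59 in SW480. None of 3 endothelial and 2 leukocyte markers passed 7 in either line, and 2 of 5 fibroblast markers passed it in SW620, LUM at 8.61 and COL1A1 at 7.06, against none in SW480. Over both lines CDK5 was at 32.3%, HRAS at 40.6%, MAP2K1 at 32.7%, MAP2K2 at 27.3%, MAPK3 at 73.0% and NGFR at 25.4% of the vector controls in its own knockdown. HRAS was at 60.0% in SW620 and 27.5% in SW480, and NGFR at 69.8% in SW620 and 9.25% in SW480. Differences between the lines for these 2 knockdowns thus compare unequal falls of the targeted gene. The fall of NGFR in SW620 was not called by limma (log2 change -0.52, adjusted p = 0.136). Among the SW620 arrays 3 had degraded RNA, with 3′ GAPDH signal over 5′ signal at 6.04 for MAP2K1 knockdown replicate 2, 3.82 for NGFR knockdown replicate 1 and 2.95 for MAPK3 knockdown replicate 2 (log2), against 0.05 to 1.47 on all other arrays. Among the SW480 arrays 3 lay part-way to SW620 in the genes that separate the lines: replicate 1 of the MAP2K2 knockdown at 67.7% of the way, of MAPK3 at 54.7% and of MAP2K1 at 41.1%, against -0.53% to 21.7% on other SW480 arrays. Values without these 6 arrays stand beside the results they moved most.

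Knockdown changes were fitted with limma over all genes, each against the mean of both vector controls of the line, with a term for the label series. The 6 knockdowns of a line share those controls, so their changes are not independent of each other. The share of all genes called set the background for each: in SW620 it was 24% for CDK5, 31% for HRAS, 19.1% for MAP2K1, 23.2% for MAP2K2, 29.8% for MAPK3 and 26.3% for NGFR. In SW480 it was 8.06% for CDK5, 26.2% for HRAS, 6.54% for MAP2K1, 5.17% for MAP2K2, 10.7% for MAPK3 and 24% for NGFR. Over both lines the shares were 19.4%, 36%, 15.2%, 19.2%, 25.6% and 28.7% in the same order, and for the difference between lines 15.6%, 18.9%, 11.5%, 10.4%, 17% and 23.7%.

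BMP2, a ligand of the intestinal stroma and epithelium, was higher in all 6 knockdowns of SW480 and stayed at control level in SW620. In SW620 the 35 knockdown arrays read 3.50 to 4.73, against 3.69 to 4.46 in the 12 vector controls, and the groups overlapped throughout. The fitted SW620 differences lay between -0.15 and 0.10 (SE 0.21 to 0.22). In SW480 the MAP2K1 knockdown read 7.51, 7.65, 7.68 and 7.65 in replicates 3 to 6, and the MAPK3 knockdown read 7.35, 7.24, 7.38 and 7.60, against 4.12, 4.02, 3.73 and 4.05 with the empty vector and 4.32, 3.91, 4.21 and 3.88 with the non-target hairpin. Knockdown of either kinase left every one of these arrays above every control array. Next came the CDK5 knockdown at 6.05, 6.44, 6.02 and 5.73, the MAP2K2 knockdown at 5.65, 5.75, 6.07 and 5.82, and the NGFR knockdown at 5.57, 5.71, 5.74 and 5.58. The HRAS knockdown was nearest the controls, at 4.77, 5.28, 4.77 and 5.27. In order of their means, MAP2K1 (7.62 ± 0.07, SD, n = 4) and MAPK3 (7.39 ± 0.15) overlapped, and so did CDK5 (6.06 ± 0.29), MAP2K2 (5.82 ± 0.18) and NGFR (5.65 ± 0.09). HRAS (5.02 ± 0.29) lay below all of them.

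Within replicates 3 to 6 BMP2 in SW480 was 12.1-fold higher after MAP2K1 knockdown and 10.3-fold higher after MAPK3 knockdown, and all 24 knockdown arrays exceeded the 8 controls. Across all genes and knockdowns of SW480, 11.1% showed that separation upward; BMP2 was chosen for it, so nothing is read from the comparison. Replicate 1 kept the pattern in part, at 6.70 for MAP2K1, 6.65 for MAPK3, 4.97 for NGFR, 4.90 for MAP2K2, 4.56 for HRAS and 4.40 for CDK5, against 4.39 and 4.29 in its controls. In replicate 2 the knockdowns read 4.26 to 4.82, against 4.60 and 4.41 in the controls, and 1 of 6 lay above both. Fitted over all label series, the differences were 6.85-fold for MAP2K1, 6.12-fold for MAPK3, 2.58-fold for CDK5, 2.42-fold for MAP2K2, 2.36-fold for NGFR and 1.57-fold for HRAS (SE 0.21 on the log2 scale). The non-transduced SW480 arrays did not share 1 level: replicates 1 and 2 were at 4.40 and 4.20, and replicate 7 was at 7.04 without any vector, just below the 7.24 to 7.68 of the MAP2K1 and MAPK3 knockdowns in replicates 3 to 6. The other BMP2 probe set followed the one used (r = 0.958 over the 101 arrays). Each array averages a whole culture, so more BMP2 RNA per cell and more cells that express it cannot be told apart.

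**Figure D1:**
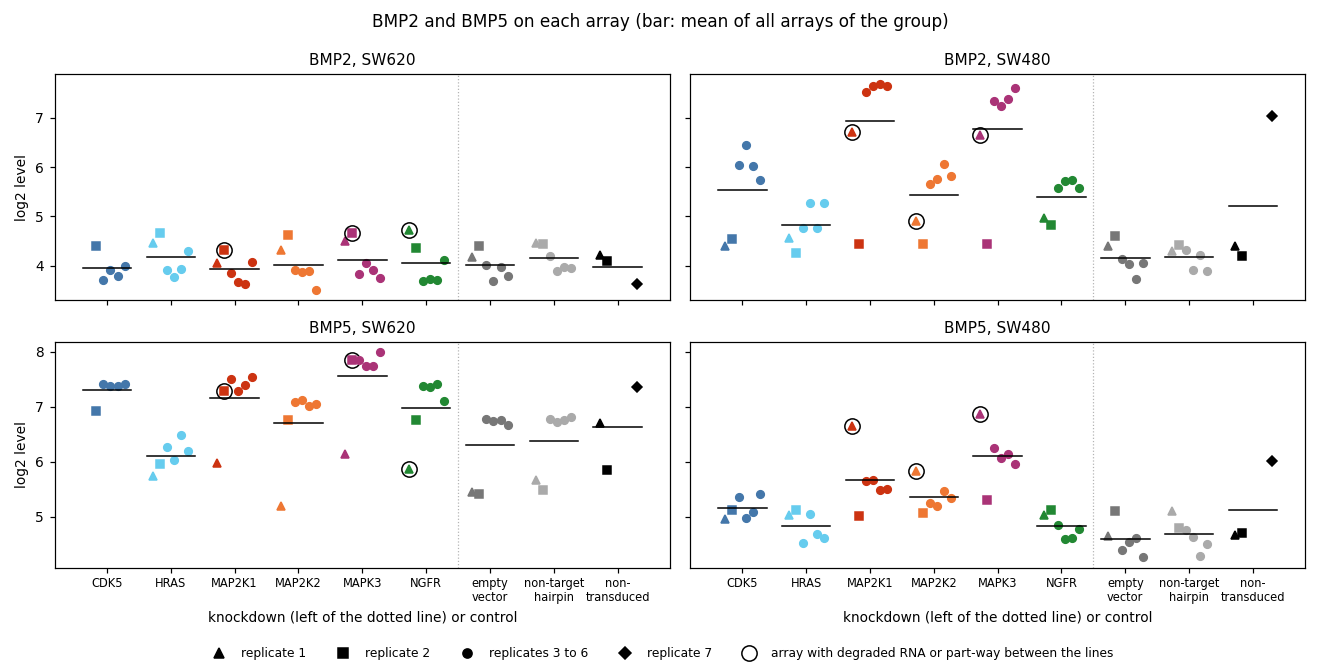
BMP2 and BMP5 levels (log2 RMA intensity) on every array, SW620 left and SW480 right, with the 6 knockdowns before the empty vector, the non-target hairpin and non-transduced cells. Triangles are replicate 1, squares replicate 2, circles replicates 3 to 6 and diamonds replicate 7; rings mark arrays with degraded RNA or part-way between the lines, and bars are group means. SW480 BMP2 lies at 7.24 to 7.68 in replicates 3 to 6 of the MAP2K1 and MAPK3 knockdowns, while its replicate 2 squares stay near the controls.

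BMP5, a ligand mostly studied in skeletal and gut mesenchyme, was higher in 5 of 6 knockdowns of SW620 and most of all after MAPK3 knockdown in both lines. In SW620 the MAPK3 knockdown read 7.85, 7.73, 7.74 and 8.00 in replicates 3 to 6, against 6.77, 6.74, 6.76 and 6.68 with the empty vector and 6.77, 6.71, 6.76 and 6.82 with the non-target hairpin. All 4 knockdown arrays stood above all 8 controls. MAP2K1 (7.43 ± 0.11, SD, n = 4), CDK5 (7.40 ± 0.02) and NGFR (7.31 ± 0.14) overlapped below it, MAP2K2 (7.07 ± 0.04) came next and overlapped NGFR, and HRAS (6.24 ± 0.18) was under the controls. Of 24 SW620 knockdown arrays in these replicates 20 lay above every control and 4, all of HRAS, below. By knockdown, 5 of 6 lay wholly above and HRAS wholly below, beside 17.4% of all gene and knockdown pairs wholly above and 20.9% wholly below. BMP5 was chosen for its rises, so nothing is read from the comparison. In SW480 the MAPK3 knockdown read 6.25, 6.07, 6.14 and 5.96, against 4.25 to 4.75 in the 8 controls. There MAP2K1 (5.58 ± 0.09), MAP2K2 (5.31 ± 0.12) and CDK5 (5.21 ± 0.21) followed, and the last pair overlapped. HRAS (4.71 ± 0.23) and NGFR (4.71 ± 0.13) overlapped each other and the controls.

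Fitted over all label series, BMP5 differences in SW620 were 1.22 for MAPK3, 0.83 for MAP2K1, 0.78 for CDK5, 0.65 for NGFR, 0.37 for MAP2K2 and -0.22 for HRAS (log2, SE 0.15 to 0.16). The HRAS value joins label series that differed, at 0.19 in replicate 1 and 0.50 in replicate 2, each array above both of its controls, and -0.51 in replicates 3 to 6. So does the MAP2K2 value, at -0.37 in replicate 1, below both of its controls, 1.31 in replicate 2 and 0.31 in replicates 3 to 6. In SW480 they were 1.46 for MAPK3, 1.03 for MAP2K1, 0.72 for MAP2K2, 0.52 for CDK5, and 0.20 for HRAS and NGFR alike. BMP5 was thus higher in both lines after most knockdowns, where BMP2 was higher in SW480. Of the 3 SW480 arrays part-way to SW620, the line with the higher BMP5, 2 were the highest of that line: MAPK3 replicate 1 read 6.87 and MAP2K1 replicate 1 read 6.65, against 4.65 and 5.11 in the controls of that replicate. SW480 replicate 2 read 5.01 to 5.29 in knockdowns, against 5.10 and 4.80. As with BMP2, the non-transduced replicate 7 was high, at 7.36 in SW620 and 6.01 in SW480, while the other non-transduced arrays read 6.71 and 5.85 in SW620 and 4.66 and 4.70 in SW480.

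BMP4, the ligand made by many colorectal cancer cells, rose in SW620 after HRAS knockdown by 0.90 ± 0.18 (SE; limma adjusted p = 5.63e-05) and after NGFR knockdown by 0.95 ± 0.18 (adjusted p = 3.78e-05). These calls stand beside 31% of genes called for HRAS and 26.3% for NGFR in that line. The SW620 NGFR knockdown read 10.93, 11.06, 10.91 and 11.11 in replicates 3 to 6, against 9.54 to 9.84 in the 8 controls, and the HRAS knockdown read 10.53 to 10.61. All 8 arrays lay above all controls, and so did all 24 SW620 knockdown arrays of these replicates. Beside this, 17.4% of all gene and knockdown pairs of that line lay wholly above. NGFR replicate 1, on degraded RNA, read 8.61, against 8.57 and 9.05. In SW620 limma did not call MAP2K1 (0.46, adjusted p = 0.0664), MAP2K2 (0.44, adjusted p = 0.076), CDK5 (0.24) or MAPK3 (0.17). In SW480 BMP4 fell by 0.60 after NGFR knockdown (adjusted p = 0.00978), where 24% of genes were called. That fall was seen in replicates 1 and 2, at 9.06 and 8.50, against 10.47 and 10.30 with the empty vector and 10.68 and 10.21 with the non-target hairpin. In replicates 3 to 6 alone the change was -0.09. Lying below the controls was not particular to NGFR, since in each of replicates 1 and 2 all 6 SW480 knockdown arrays did so. Their differences ran from -2.05 (CDK5) to -0.28 in replicate 1 and from -1.75 (NGFR) to -0.19 in replicate 2. The SW620 change exceeded the SW480 one by 1.56 for NGFR (adjusted p = 2.57e-06) and by 0.91 for HRAS (adjusted p = 0.0079), where 23.7% and 18.9% of genes were called. Averaged over both lines the BMP4 change was 0.44 for HRAS and MAP2K1 alike and 0.33 for MAPK3 (limma adjusted p = 0.0498, and 0.063 with the replicate block), beside 36%, 15.2% and 25.6% of genes. The HRAS value came from SW620, the SW480 change being -0.02. In SW480 the label series had opposite signs for the other 2. MAP2K1 was at -0.28 in replicate 1, -0.41 in replicate 2 and 0.79 in replicates 3 to 6, and MAPK3 at -0.39, -0.59 and 0.99. In SW620 MAPK3 replicate 2, on degraded RNA, was at -0.86.

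BMP7, a ligand of epithelia, was called in none of the 6 knockdowns of either line by limma, and none reached an unadjusted p under 0.05 in SW620 or SW480. Over both lines 1 of 6 had an unadjusted p under 0.05 and 0 were called. Its fitted changes ran from -0.10 to 0.37 in SW620 and from -0.42 to 0.38 in SW480. In replicates 3 to 6 the MAPK3 knockdown of SW620 read 8.26 to 8.38, against 7.55 to 7.70 in the controls, while its replicate 2, on degraded RNA, read 5.00, against 7.26 and 7.23. Like each of the other genes here, BMP7 spread less within replicates 3 to 6 than over whole groups (median SD 0.05 and 0.27, against 0.07 and 0.74 for ID1). Of 24 SW620 knockdown arrays in replicates 3 to 6, 20 lay above every control, all those of CDK5, HRAS, MAP2K1, MAP2K2 and MAPK3, and 2 of NGFR lay below. In that line 17.4% of all gene and knockdown pairs lay wholly above and 20.9% wholly below. In SW620 replicate 1, 0 of 5 lay above and 4 below. The other BMP7 probe sets followed the one used unevenly (r = 0.929, 0.639 and 0.338).

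**Figure D2:**
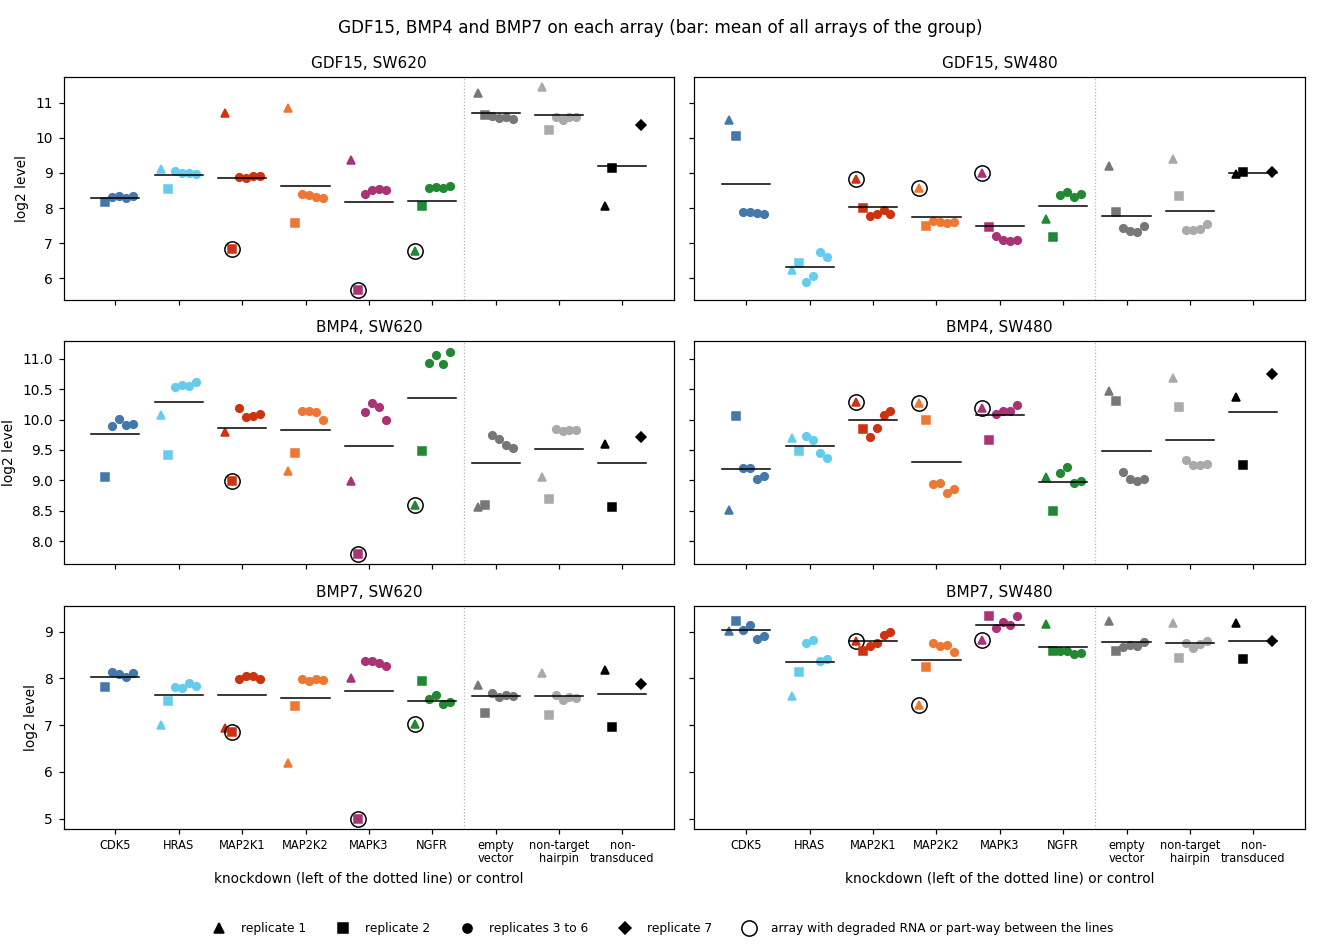
GDF15, BMP4 and BMP7 levels (log2 RMA intensity) on every array, SW620 left and SW480 right, drawn with the same order of groups, symbols, rings and mean bars as the plot of BMP2 and BMP5. SW620 GDF15 lies at 10.21 to 11.45 in the vector controls and lower in every knockdown group, and SW620 BMP4 is highest after NGFR knockdown.

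Of the BMP-responsive genes, ID1 rose in 2 SW480 knockdowns and fell in 1 SW620 knockdown. In SW480 it rose after NGFR knockdown by 1.21 ± 0.36 (SE; 2.32-fold, limma adjusted p = 0.007) and after MAPK3 knockdown by 1.19 ± 0.36 (2.28-fold, adjusted p = 0.017), where 24% and 10.7% of genes were called. MAP2K2 and MAP2K1 gave differences of nearly the same size that missed the threshold, 1.01 (95% interval 0.32 to 1.71, adjusted p = 0.079) and 1.00 (0.30 to 1.69, adjusted p = 0.0757). CDK5 gave 0.56 (-0.14 to 1.25, adjusted p = 0.397) and HRAS -0.06 (-0.76 to 0.64, adjusted p = 0.923). In SW620 ID1 fell by 1.28 after MAPK3 knockdown (adjusted p = 0.00357, beside 29.8% of genes), and the other 5 differences, from -0.57 to 0.12, were not called. The SW620 change was below the SW480 change by 2.47 for MAPK3 (adjusted p = 0.000207), 1.68 for NGFR (adjusted p = 0.00902) and 1.56 for MAP2K1 (adjusted p = 0.0292), where 17%, 23.7% and 11.5% of genes were called. Without degraded arrays these differences between the lines were -1.62 for MAPK3 (adjusted p = 1.54e-05) and -0.84 for MAP2K1 (adjusted p = 0.0339), and the NGFR one stayed called (adjusted p = 2.1e-05). Without both kinds of doubtful array they were -1.23 for MAPK3 (adjusted p = 8.02e-06) and -0.57 for MAP2K1 (adjusted p = 0.0568), and NGFR was again called (adjusted p = 7.07e-09). Over the 20 alternatives the call was lost in 11 for MAP2K1, 7 for NGFR and 2 for MAPK3.

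The label series differed in ID1. In SW480 replicates 3 to 6, ID1 read 8.00, 8.11, 7.99 and 7.97 after NGFR knockdown, against 6.81, 6.78, 6.86 and 6.83 with the empty vector and 6.33, 6.38, 6.32 and 6.48 with the non-target hairpin. It read 7.76, 7.61, 7.41 and 7.46 for MAPK3, 7.61, 7.51, 7.47 and 7.60 for MAP2K2, 7.45, 7.62, 7.65 and 7.52 for MAP2K1, and 7.11, 7.15, 7.15 and 7.08 for CDK5. Those 20 arrays all lay above the 8 controls, a separation that 11.1% of all gene and knockdown pairs showed, with NGFR alone at the top, MAPK3, MAP2K1 and MAP2K2 overlapping, and CDK5 lowest. HRAS read 6.46, 6.04, 7.22 and 7.23, on both sides of the controls. In replicate 2 the knockdowns of CDK5, HRAS, MAP2K1 and MAP2K2 read 5.68 to 5.86, against 5.85 and 5.68 in the controls, MAPK3 was at 6.04 and NGFR at 6.57. In replicate 1 the arrays part-way to SW620 read 9.22 for MAPK3, 8.46 for MAP2K2 and 8.42 for MAP2K1, against 6.59 and 5.80 in the controls. SW620 controls, for which ID1 is the brighter, read 8.92 to 10.69.

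Without the arrays part-way to SW620 the SW480 MAPK3 change was 0.80 (adjusted p = 0.158). With replicates 3 to 6 alone ID1 was called higher in 5 of 6 SW480 knockdowns, all but HRAS, and no share of all genes is given for that setting. The empty vector alone as control took the NGFR call away (0.98, adjusted p = 0.092). In SW620 the MAPK3 fall rested on the degraded array of replicate 2, which read 4.00, against 9.90 and 9.65 in its controls; the degraded MAP2K1 array read 5.31. Without degraded arrays the SW620 MAPK3 change was -0.43 (adjusted p = 0.113). In SW620 replicates 3 to 6, ID1 read 9.99 to 10.20 for MAPK3, 9.95 to 10.01 for HRAS, 10.07 to 10.10 for CDK5 and 10.10 to 10.25 for NGFR, against 10.44 to 10.69 in the controls. Each of these 16 arrays was below all 8 controls, as in 20.9% of all gene and knockdown pairs of SW620. MAP2K1 at 10.54 to 10.68 overlapped them, and 3 of 4 MAP2K2 arrays, at 10.89 to 10.96, lay above all controls.

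**Figure D3:**
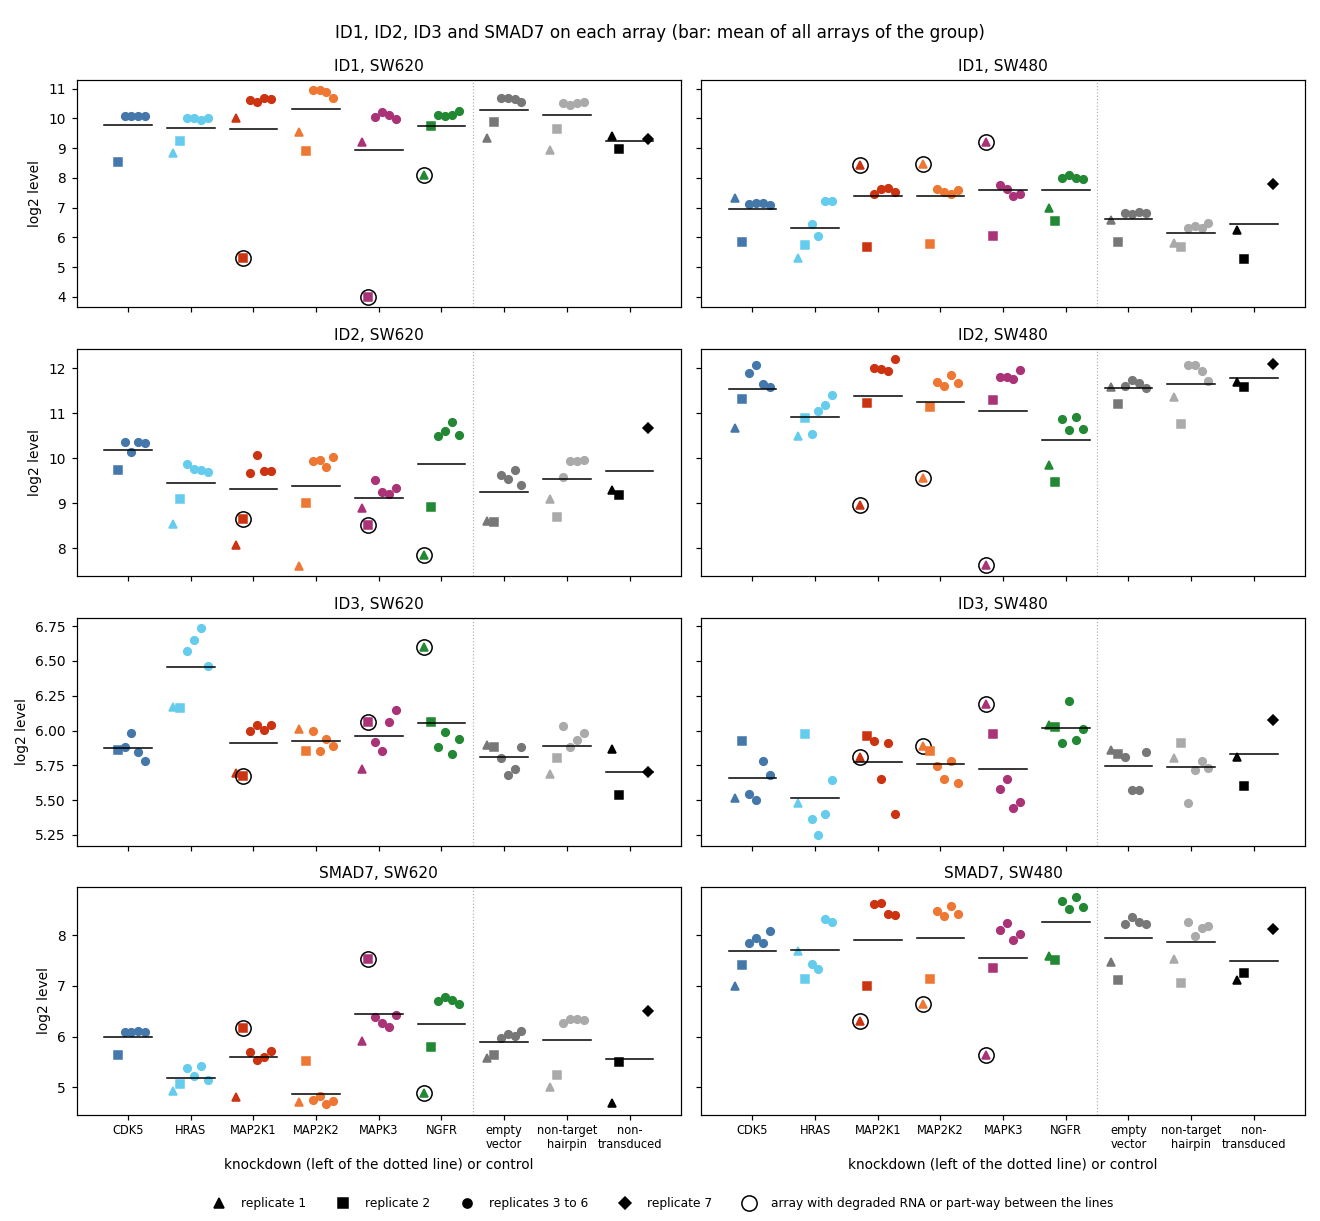
ID1, ID2, ID3 and SMAD7 levels (log2 RMA intensity) on every array, SW620 left and SW480 right, with knockdowns before controls and the same symbols, rings and mean bars as the plot of BMP2 and BMP5. SW480 ID1 stands above its controls in replicates 3 to 6 of 5 knockdowns, and the ringed SW620 squares at 4.00 and 5.31 are degraded arrays.

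ID2, a close relative of ID1 that also blocks helix-loop-helix factors, was called in 2 SW480 knockdowns, lower in both. It fell by 1.21 after NGFR knockdown (2.32-fold lower, adjusted p = 4.78e-05) and by 0.68 after HRAS knockdown (adjusted p = 0.0273, beside 26.2% of genes). The NGFR knockdown read 9.86, 9.48, 10.87, 10.63, 10.92 and 10.65 in replicates 1 to 6, against 10.77 to 12.08 in the 12 controls, and lay below the controls of its own series each time. In the same NGFR arrays ID1 was higher, so the 2 genes moved in opposite directions. In SW620 none of the 6 ID2 differences was called by limma, and 1 had an unadjusted p under 0.05. The SW620 change exceeded the SW480 change by 1.69 for NGFR (adjusted p = 8.9e-05), with SW620 arrays at 10.49 to 10.82 in replicates 3 to 6, against 9.41 to 9.97 in controls. The arrays part-way to SW620 read 7.63, 8.96 and 9.56 in SW480 replicate 1, against 11.59 and 11.36, and SW620 controls read 8.57 to 9.97.

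ID3, the third of these helix-loop-helix inhibitors, moved in opposite directions after HRAS knockdown. In SW620 it rose by 0.61 ± 0.08 (SE; adjusted p = 8.84e-09), at 6.17, 6.16, 6.57, 6.65, 6.74 and 6.47 in replicates 1 to 6, against 5.68 to 6.03 in the 12 controls, with no overlap. In replicates 3 to 6, 17.4% of all gene and knockdown pairs of SW620 lay wholly above the controls. In SW480 ID3 fell by 0.23 (adjusted p = 0.0374), at 5.25 to 5.97, against 5.48 to 5.91, and the groups overlapped. The call was lost in 10 of 20 alternatives, and replicate 2 lay 0.10 above its controls, where replicate 1 was at -0.35 and replicates 3 to 6 at -0.28. The difference between the lines was 0.84 (adjusted p = 1.33e-07). After NGFR knockdown ID3 rose by 0.28 in SW480 (adjusted p = 0.00942), at 6.04, 6.03, 5.91, 6.21, 5.93 and 6.01, at the top of or above the control range. After MAPK3 and MAP2K1 knockdown, where SW480 BMP2 was highest, ID3 was not called in either line.

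SMAD7 was called by limma in 0 of 6 SW480 knockdowns, 1 having an unadjusted p under 0.05, while in SW620 it fell in 2 and rose in 1. It fell by 1.04 ± 0.18 after MAP2K2 knockdown (SE; 2.06-fold lower, adjusted p = 6.9e-06, beside 23.2% of genes) and by 0.72 after HRAS knockdown (1.64-fold lower, adjusted p = 0.00108). For MAP2K2 the SW620 arrays read 4.72, 5.52, 4.75, 4.84, 4.67 and 4.74 in replicates 1 to 6, against 5.01 to 6.35 in the controls, and replicate 2 was the array within the control range. The SW620 change was below the SW480 one by 1.08 for MAP2K2 (adjusted p = 0.00262). The SW620 rise after MAPK3 knockdown, 0.55 (adjusted p = 0.0158), held the degraded replicate 2 at 7.53, and it was 0.29 (adjusted p = 0.204) without degraded arrays. For that knockdown the SW620 change exceeded the SW480 one by 0.90 (adjusted p = 0.00902), by 0.65 (adjusted p = 0.0408) without degraded arrays and by 0.36 (adjusted p = 0.206) without both kinds of doubtful array. In SW480 replicates 3 to 6, SMAD7 lay above every control in 12 of 24 knockdown arrays and below in 6. Wholly above were NGFR (0.42), MAP2K1 (0.31) and MAP2K2 (0.26), beside 11.1% of all gene and knockdown pairs. In replicate 1 MAP2K1 and MAP2K2 differed by -1.19 and -0.87, on arrays part-way to SW620. All 6 NGFR arrays exceeded the controls of their series, and that change (0.37, adjusted p = 0.138) was called in 4 of 20 alternatives.

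Over the 24 pairs of gene and knockdown, ID1, ID2, ID3 and SMAD7 together gave 2 rises and 3 falls in SW620, beside 25.6% of all gene and knockdown pairs called. In SW480 they gave 3 rises and 3 falls, beside 13.4%, and over both lines 3 rises and 2 falls, beside 24%. With replicates 3 to 6 alone there were 5 rises and 8 falls in SW620 and 9 rises and 5 falls in SW480, so the balance depended on the label series. No share of all genes is given for that setting, where the spread of each gene was smaller. Within SW480 the HRAS knockdown had the lowest BMP2 and ID1 means of the 6 in replicates 3 to 6. The other 5 did not keep a common order, since NGFR had the highest ID1 (8.02) with a BMP2 mean of 5.65, and MAP2K1 had the highest BMP2 (7.62) with an ID1 mean of 7.56. In SW620 replicates 3 to 6 ID1 lay below all controls in 4 knockdowns, CDK5, HRAS, MAPK3 and NGFR, and BMP5 lay above them in each of these but HRAS. In SW620 replicate 1 ID1 differed from its controls by 0.87 for MAP2K1, 0.42 for MAP2K2, 0.06 for MAPK3, -0.29 for HRAS and -1.02 for NGFR, so the label series did not share 1 direction. Levels on these arrays are of RNA, and secreted ligand or SMAD phosphorylation was not measured in the arrays used here.

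**Figure D4:**
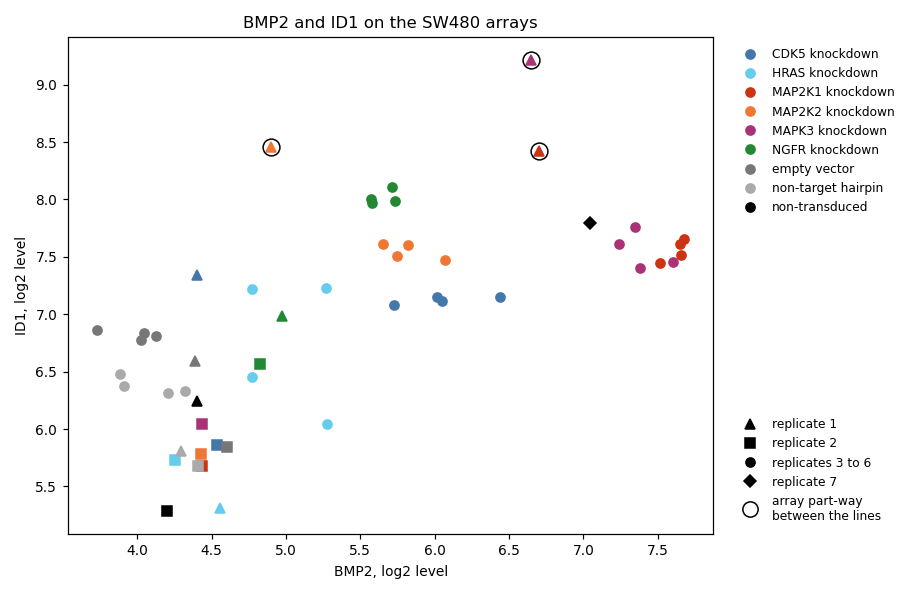
ID1 level against BMP2 level (both log2 RMA intensity) on each SW480 array, coloured by treatment, with the same symbols for replicates and rings for arrays part-way to SW620. Knockdown arrays of replicates 3 to 6 lie right of and mostly above the vector controls, NGFR has the highest ID1 of these at a middling BMP2, and replicate 2, apart from NGFR, stays with the controls.

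**Figure D5:**
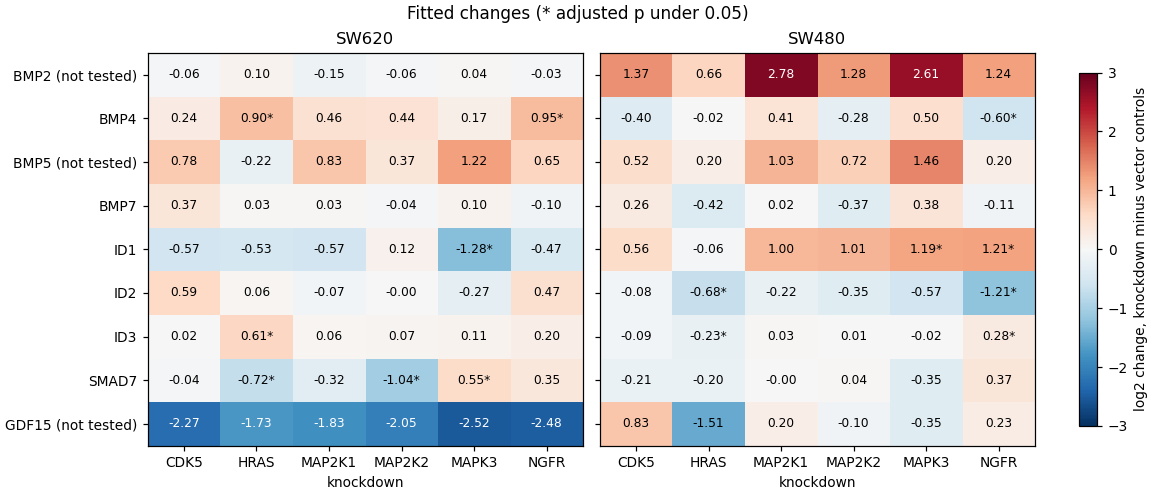
Fitted log2 change of each of the 9 genes in each of the 6 knockdowns against both vector controls, SW620 left and SW480 right. Asterisks mark an adjusted p under 0.05 by limma, and BMP2, BMP5 and GDF15 were not tested; BMP2 is at 2.78 and 2.61 in the MAP2K1 and MAPK3 columns of SW480, and GDF15 is below -1.7 in every SW620 column.

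GDF15, a circulating stress signal of damaged epithelium, was lower in all 6 knockdowns of SW620, all 35 of whose arrays lay below every control of their own label series. In replicates 3 to 6, 20.9% of all gene and knockdown pairs of SW620 lay wholly below. GDF15 was chosen for its fall, so nothing is read from the comparison. In replicates 3 to 6 it read 8.31, 8.34, 8.29 and 8.33 after CDK5 knockdown and 8.28 to 8.41 after MAP2K2 knockdown, against 10.62, 10.56, 10.60 and 10.55 with the empty vector and 10.60, 10.51, 10.58 and 10.59 with the non-target hairpin. MAPK3 read 8.39 to 8.53, NGFR 8.56 to 8.64, MAP2K1 8.85 to 8.92 and HRAS 8.98 to 9.04. CDK5 and MAP2K2 overlapped at the bottom, and HRAS was nearest the controls. Fitted over all series, the levels were 5.73-fold lower for MAPK3, 5.57-fold for NGFR, 4.84-fold for CDK5, 4.13-fold for MAP2K2, 3.56-fold for MAP2K1 and 3.33-fold for HRAS. Degraded arrays gave the lowest readings, 5.67 for MAPK3, 6.79 for NGFR and 6.84 for MAP2K1. In replicate 1, MAP2K2 at 10.86 and MAP2K1 at 10.71 were close under the controls at 11.27 and 11.45.

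SW480 showed no such common shift of GDF15. The HRAS knockdown read 6.24, 6.44, 5.90, 6.08, 6.75 and 6.62 in replicates 1 to 6, against 7.33 to 9.41 in the 12 controls, a fitted difference of -1.51. The CDK5 knockdown read 10.51, 10.05, 7.89, 7.89, 7.86 and 7.84, a difference of 0.83, and the other 4 lay between -0.35 and 0.23. The NGFR value, 0.23, joins -1.60 and -0.92 in replicates 1 and 2 with 0.97 in replicates 3 to 6, whose 4 arrays lay above every control of their series. HRAS arrays were below all controls and CDK5 arrays were above the controls of their series. The 2 further GDF15 probe sets were dim, with means of 4.89 and 4.37, and followed the one used less closely (r = 0.616 and 0.355).

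Stress genes that share inducers with GDF15, such as the transcription factors ATF4, ATF3, DDIT3 and CEBPB and the pseudokinase TRIB3, were lower with it in SW620. Of 10 such genes, limma called 9 lower in the SW620 knockdowns of CDK5, MAP2K1, MAP2K2 and NGFR and 8 in those of HRAS and MAPK3, beside 13.6% of all gene and knockdown pairs called lower in that line. The list was drawn around GDF15 with earlier results of these data known, and it shares the control arrays of GDF15. These counts are therefore a description and no independent support for the GDF15 fall. Their medians in SW620 ran from -1.37 to -0.76, with medians over all genes between -0.01 and 0.01. In SW480, where 7.32% of all pairs were called lower, limma called 0 of 10 lower in any knockdown, and 3 of 60 pairs of gene and knockdown were lower at an unadjusted p under 0.05. There 13 of the 60 pairs were called higher, beside 6.11% of all pairs, and 20 were higher at an unadjusted p under 0.05. In the SW620 part of the fit ATF3 was at -1.95 for CDK5, -1.90 for MAP2K1 and MAP2K2, and -1.76 for MAPK3, against -0.12, -0.21, -0.03 and -0.32 in SW480. TRIB3 was at -2.71 for NGFR in SW620, against -0.17 in SW480, and CEBPB at -2.41, against -0.12. MDM2, the p53 inhibitor, rose in 4 knockdowns, among them by 0.41 for CDK5, 0.50 for MAP2K1 and 0.46 for MAPK3 over both lines.

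In SW620 GDF15 also read higher in vector controls than in non-transduced cells. It read 10.21 to 11.45 in the 12 vector controls, against 8.07, 9.13 and 10.36 in non-transduced cells, of which replicate 7 lay within the vector range. The fitted difference was 2.03, to which replicate 7 adds nothing, having a label series of its own; it was 0.71 without replicate 1. These vector arrays are also the ones behind the knockdown differences for which GDF15, BMP2 and BMP5 were chosen, so none of them is tested here. Of the 6 tested genes limma called 0 in SW620, 0 having an unadjusted p under 0.05, beside 5.88% of genes called. In SW480 limma called 0 of the 6 tested genes between vector controls and non-transduced cells, 1 having an unadjusted p under 0.05, and 0% of all genes. The non-target hairpin and the empty vector differed in 0 of the 6 tested genes in each line, with none at an unadjusted p under 0.05, beside 0.00506% of genes in SW620 and 0.101% in SW480. With replicates 3 to 6 alone the non-target hairpin differed from the empty vector in SW480 by -0.45 in ID1 (limma adjusted p = 0.00387) and by 0.24 in BMP4 (adjusted p = 0.00897).

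The lines themselves started from different levels of 4 of the 6 tested genes, beside 48.6% of all genes called between SW620 and SW480 vector controls. ID1 was 14.0-fold higher in SW620 (10.2 ± 0.60, SD, n = 12) than in SW480 (6.39 ± 0.42; limma adjusted p = 2.01e-20). GDF15 was 7.17-fold and BMP5 3.25-fold higher, given without a test because these vector arrays entered their choice. ID2 was 4.67-fold lower in SW620 (9.39 ± 0.52) than in SW480 (11.6 ± 0.37; adjusted p = 4.28e-17), SMAD7 was 3.97-fold lower (adjusted p = 5.09e-21), and BMP7 differed by -1.15 on the log2 scale (adjusted p = 1.72e-08). ID1 and ID2 therefore stood in opposite order in the lines. ID3 (0.11, adjusted p = 0.207) was not called, and the BMP2 difference, also untested, was -0.09. BMP4 gave -0.18 (adjusted p = 0.337), which was 0.57 in replicates 3 to 6 alone and -1.68 in replicates 1 and 2 alone, both called.

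Beyond the 9 genes, 91 genes of the wider pathway were listed in 8 groups and 84 were measured. The lists were drawn with earlier results of these data known, so their counts are a description. Over both lines, other ligands had 0 to 5 rises and 0 to 4 falls among 17 measured per knockdown, beside 15.2% to 36% of genes called. INHBE, an activin subunit of the stress response, fell by 1.97 after MAP2K2 knockdown and by 1.46 after HRAS knockdown, chiefly in SW620 (-3.75 and -2.58, against -0.18 and -0.34 in SW480). INHBB, another activin subunit, fell by 1.03 for HRAS and rose by 0.45 for NGFR. Among 14 receptors, BMPR2, the main BMP type II receptor, fell by 0.63 for CDK5 and MAPK3 alike and by 0.73 for HRAS. ACVR1C, a type I receptor for nodal and activin, fell in 4 knockdowns, by 0.33 to 0.60. Receptors had 0 to 2 rises and 0 to 5 falls per knockdown.

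Over both lines the SMAD group, 11 genes with co-factors, had 1 to 3 rises and 0 to 3 falls. SKI, a co-repressor of SMAD complexes, rose in 4 knockdowns, by 0.21 for MAPK3 up to 0.46 for HRAS. SMAD5, a BMP signal transducer, fell by 0.37 for MAP2K1 and 0.23 for MAP2K2 and rose by 0.33 for NGFR. SMAD9 fell by 0.51 for HRAS and 0.43 for MAPK3. Of 15 secreted antagonists 0 to 2 rose and 0 to 3 fell, TWSG1, which binds BMPs outside the cell, falling by 0.75 for HRAS and rising by 0.35 for NGFR. The 10 other BMP targets had 0 or 1 rise and 0 to 5 falls, with DLX3, a homeobox gene, lower in 4 knockdowns (0.20 for MAP2K2 up to 0.47 for HRAS on the log2 scale). TCF3, a helix-loop-helix partner of ID proteins, rose in 4, by 0.31 to 0.52, and the 5 such partners had 0 to 2 rises and 0 to 2 falls. Medians of all these lists over both lines lay between -0.18 and 0.15, beside -0.01 to 0.01 over all genes. By line, limma called 9 rises and 6 falls of other BMP targets over 60 pairs in SW480. In SW620 it called 0 rises, 1 being higher at an unadjusted p under 0.05, and 13 falls. The SMAD group had 14 rises and 5 falls over 66 pairs in SW480, and 6 and 10 in SW620. Of all pairs 6.11% were called higher and 7.32% lower in SW480, and 25.6% were called in SW620, 13.6% lower. Genes with opposite signs in the lines are not named here.

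TGF-beta targets, 5 measured, gave 0 rises and 2 or 3 falls in every knockdown over both lines by limma, beside 13.2% of all gene and knockdown pairs called lower, and 0 of 30 pairs were higher at an unadjusted p under 0.05. In SW480 alone 1 of 30 pairs was higher at an unadjusted p under 0.05, and the MAP2K2 knockdown had 0 falls by limma. TGFBI, a matrix protein, fell in 5 of 6 knockdowns, by 1.44 for NGFR and 0.99 for HRAS. CCN2, a growth factor of the matrix, fell by 1.46 for CDK5, 0.79 for MAPK3 and 0.61 for MAP2K2. PMEPA1, a feedback inhibitor of TGF-beta receptors, fell by 0.85 for NGFR, 0.48 for MAP2K1 and 0.33 for MAP2K2. The medians of this list lay between -0.33 and -0.09.

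Genes whose group means across the 18 groups, centred within each line, ran most like those of BMP2 were CDH12 (Pearson r = 0.926), COL4A1 (0.908), PDGFC (0.903), CTCFL (0.903) and GJA1 (0.894). For BMP5 they were ATP5IF1 (0.850), LUM (0.846), PCDH19 (0.825), MAPRE2 (0.798) and LFNG (0.797). For ID1 they were COG7 (0.931), FOXA3 (0.877), ABCA17P (0.846), SERGEF (0.803) and VPS9D1 (0.803), and for GDF15 ATF6 (0.913), BCAS3 (0.902), GATAD1 (0.901), PARP3 (0.893) and METTL25B (0.872). LUM is 1 of the 5 fibroblast markers, and its part in the BMP5 pattern was not tested. These are descriptions of 18 means that share controls and label series, and provisional gene symbols, such as LOC or LINC names, were left out.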

How the data were processed

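101 Affymetrix arrays were used, and the deposited log2 intensities had been made by the authors with RMA (background correction, quantile normalization and summary per probe set), per the submitters' processing notes; its version is not given in the sources used here. RMA narrows low values, so changes of dim probe sets such as BMP2 are understated. Of 54675 probe sets, 41097 name 1 gene, 1801 several and 11777 none; only the first were used, and 19775 genes were each read from the brightest. The members and gene lists were chosen with earlier results of these data known. limma 3.58.1 in R 4.3.3 (lmFit, eBayes with trend and robust) fitted treatment by line plus label series within line (replicate 1, replicate 2, replicates 3 to 6, replicate 7). Tests were two-sided, Benjamini-Hochberg adjusted over all genes, with a call at 0.05. Genes of the lists were named where called over both lines, with the same sign in each line, in 2 or more knockdowns, at most the 3 of smallest p per list and knockdown. For 4 genes the 5 genes with the most similar group means were named. Provisional symbols (LOC, LINC, FLJ, KIAA, MGC and numbered open reading frames) were left out first. In data simulated for MAPK3 in SW480, 76% of changes of 0.5 and 100% of changes of 1 were recovered over 19775 genes, each size put into 50 genes. The simulated noise was independent between arrays, so knockdown changes that disagree between label series and doubtful arrays are not in it. It therefore does not show that an uncalled gene lacks such a change. ID1 at 1.01 for MAP2K2 in SW480 was not called (limma adjusted p = 0.079). The number of arrays limits the precision. Same-numbered arrays deviated together in 142 of 142 pairs (r 0.27 to 0.91); within replicates 3 to 6 they did so in 14 of 96 (median r -0.01), so the numbers mark the label series already in the fit. Alternatives were the replicate block, other controls, other probe set rules, normalization, label series, and arrays left out. Promoter sequences are RefSeq's, build GRCh38.p14.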

Additional observations from a re-analysis of the deposited data

Results flagged for a closer look

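In groups of 5 or 6 arrays, an array was listed where its gap to the nearest other array exceeded Dixon's 95% critical value. Of 144 combinations of gene and group checked, 43 arrays were listed; chance alone lists about 1 in 20 groups, and all 43 were replicate 1 or replicate 2.

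For the ligands, BMP2 in SW480 stood apart at 4.44 for MAP2K1 and 4.43 for MAPK3 knockdown, both replicate 2. BMP4 stood apart in replicate 2 at 9.05 for CDK5 and 8.99 for MAP2K1 knockdown in SW620, and at 9.66 for MAPK3 and 8.50 for NGFR knockdown in SW480. BMP5 in SW620 stood apart at 6.92 for CDK5 replicate 2, and in replicate 1 at 5.98 for MAP2K1, 5.18 for MAP2K2 and 6.14 for MAPK3 knockdown. BMP7 stood apart in SW620 at 6.19 for MAP2K2 replicate 1 and 5.00 for MAPK3 replicate 2, and in SW480 replicate 1 at 7.43 for MAP2K2 and 9.16 for NGFR knockdown and at 9.23 with the empty vector.

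ID1 stood apart in SW620 at 8.55 for CDK5 replicate 2, 5.31 for MAP2K1 replicate 2, 4.00 for MAPK3 replicate 2 and 8.11 for NGFR replicate 1, and in SW480 replicate 2 at 5.86 for CDK5, 5.68 for MAP2K1 and 5.78 for MAP2K2 knockdown and 5.85 with the empty vector. ID2 stood apart in SW480 replicate 1 at 8.96 for MAP2K1, 9.56 for MAP2K2 and 7.63 for MAPK3 knockdown, and at 11.2 in replicate 2 of the empty vector. ID3 stood apart at 6.60 for NGFR knockdown replicate 1 in SW620. SMAD7 stood apart in SW620 replicate 2 at 5.63 for CDK5, 5.52 for MAP2K2 and 7.53 for MAPK3 knockdown, and at 5.64 for MAPK3 replicate 1 in SW480.

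GDF15 stood apart in SW620 at 8.18 for CDK5 replicate 2, 8.54 for HRAS replicate 2, 10.9 for MAP2K2 replicate 1, 5.67 for MAPK3 replicate 2 and 6.79 for NGFR replicate 1, and in replicate 1 at 11.3 with the empty vector and 11.4 with the non-target hairpin. In SW480 replicate 1 it stood apart at 8.82 for MAP2K1, 8.56 for MAP2K2 and 9.01 for MAPK3 knockdown and 9.19 with the empty vector.

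Knockdown changes in SW620 differed from those in SW480 in 10 cases, 9 of 36 by limma's test of the difference (SW620 minus SW480, log2). Beside this, 16.2% of all gene and knockdown pairs were called for that difference. The cases by limma are given first. These were BMP4 for HRAS (0.91) and NGFR (1.56), ID1 for MAP2K1 (-1.56), MAPK3 (-2.47) and NGFR (-1.68), ID2 for NGFR (1.69), ID3 for HRAS (0.84), and SMAD7 for MAP2K2 (-1.08) and MAPK3 (0.90). In their own knockdowns HRAS and NGFR RNA fell less in SW620 than in SW480. GDF15 for CDK5 differed by -3.11, every SW620 array lying below and every SW480 array above the controls of its series; this difference was not tested. Without both kinds of doubtful array ID1 for MAP2K1 (-0.57, adjusted p = 0.0568) and SMAD7 for MAPK3 (0.36, adjusted p = 0.206) were no longer called, and ID1 for MAPK3 was -1.23.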

How the results depend on the processing

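Calls of ID1, ID2, ID3 and SMAD7 over the 24 pairs of gene and knockdown were 5 in SW620, 6 in SW480 and 5 over both lines, and label series moved them most. With replicates 3 to 6 alone they were 13 in SW620, 14 in SW480 and 14 over both lines. The spread within those replicates was smaller for all 9 genes. Shares of all genes called are not given for the alternatives, so nothing particular to these genes is read from the counts. With replicates 1 and 2 alone limma called 0 in each, with 3, 3 and 2 at an unadjusted p under 0.05, on fewer arrays. Without the label series term there were 2 in SW620, 1 in SW480 and 1 over both lines. Averaging arrays in pairs gave 1 in SW480 and 1 over both lines, and the empty vector alone gave 2 in SW480. Fitting the compared groups alone gave 12 in SW620 and 11 over both lines. Without degraded arrays there were 8 in SW620 and 9 over both lines, and without both kinds of doubtful array 10 in SW620, 10 in SW480 and 12 over both lines. Leaving out each replicate number in turn gave 5 to 9 in SW620, 1 to 11 in SW480 (1 without replicate 4, 11 without replicate 2) and 4 to 10 over both lines. The replicate block left the counts at 5, 6 and 5, and BMP4 for MAPK3 over both lines was the 1 call it took away.

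Of 38 called results 4 stayed called under every alternative that gave a value, and of 72 described ones 17 changed sign under some alternative, 4 of them from a difference larger than the SD between replicates. Changes of sign in those 4, and in tested results called before or after the change, were, with replicates 3 to 6 alone, BMP5 for CDK5 (-0.068), BMP4 for MAP2K1 (-0.42), BMP7 for MAPK3 (0.25) and ID2 for MAPK3 (-0.41) as SW620 minus SW480, BMP7 for MAP2K2 in SW620 (0.35) and over both lines (0.15), BMP4 for HRAS (0.39) and SMAD7 for MAP2K1 (0.31) in SW480, ID1 for MAPK3 over both lines (0.24), and BMP4 between the vector controls of the lines (0.57). With replicates 1 and 2 alone GDF15 for NGFR in SW480 was -1.26 and BMP5 for HRAS in SW620 0.35, and further such changes were BMP2 for HRAS in SW480 (-0.016), BMP2 (0.21) and BMP5 (0.19) for HRAS and SMAD7 for MAP2K2 (0.16) as SW620 minus SW480, and BMP4 for MAPK3 over both lines (-0.42). The mean of all probe sets turned BMP5 for CDK5 as SW620 minus SW480 (-0.14). ID1 for MAPK3 over both lines was 0.38 without degraded arrays and -0.36 to 0.50 with a replicate left out (0.50 without replicate 2), and ID2 for MAPK3 as SW620 minus SW480 was -0.41 (without replicate 1) to 0.49 with a replicate left out. The causes were not tested. The mean of all probe sets gives smaller GDF15 differences, its other probe sets being dim. No values could be had for non-transduced cells with replicates 3 to 6 alone, or between lines with the compared groups alone. RMA values of dim probe sets carry little signal over background, which limits BMP2 and ID3 most.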
